A study of Mus musculus with 8 samples.

Results

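The 43 genes described here are imprinted genes of the mouse, measured by RNA-seq in mouse embryonic stem cells (ES cells) that have or lack the microRNA-processing factor Dgcr8. They were found by their symbols in the deposited expression table, which holds 49641 gene entries, and all 43 symbols were present. They fall into 18 imprinted clusters on the mm10 genome. Each value is in FPKM (fragment counts scaled to transcript length and to the mapped total of the library), so levels can be compared between genes. Of the 43 genes, 33 had a mean of at least 1 FPKM over the 8 libraries and were tested, among 12786 tested genes in all, and 10 were under that level.

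The study sequenced RNA from 4 groups of 2 libraries each, all from cells described as V6.5, a line of mixed 129/C57BL/6 background. WT cells carry functional Dgcr8. Dgcr8 KO cells lack it on both alleles, and the other 2 groups are Dgcr8 KO cells transfected with either a mimic of the ES cell microRNA miR-294 or siRNAs against Mbnl1 and Mbnl2 (siMbnl1/2), each at 50 nM and 16 h after plating. Mbnl1 and Mbnl2 encode RNA-binding proteins of the muscleblind family, which regulate alternative splicing. All 6 libraries outside the WT group therefore share the loss of Dgcr8. The WT and Dgcr8 KO groups are labelled as controls, and their columns as mock, with no word on what the mock treatment was. These columns differ in their cell-line part (V65 and ES1), so whether WT and Dgcr8 KO descend from the same parent line was not established, and a difference between lines and the loss of Dgcr8 cannot be told apart. The culture medium held serum and LIF; the surface was gelatin or a feeder layer of irradiated mouse embryonic fibroblasts, and which of these applied to a library was not stated. The labels do not say that the 2 libraries of a group came from separate cultures, so p-values measure the spread between libraries, which may be technical.

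Imprinted genes are expressed mainly or only from the allele inherited from one parent. The parental origin is recorded as DNA methylation laid down in the germ line at imprinting control regions, and these marks are kept through early development by the zinc finger protein ZFP57 with its partner TRIM28 and by the maintenance methyltransferase DNMT1. Many imprinted genes act on fetal growth, placental development and energy balance. Paternally expressed members often promote growth and maternally expressed ones often restrain it. Clusters commonly hold protein-coding genes beside a long noncoding RNA, and several host microRNAs that need Dgcr8 for their maturation. Cultured ES cells are known to vary between lines in the methylation of some of these regions. The data here are gene-level RNA sums: they do not separate the parental alleles, and in bulk RNA fewer cells of a type and less RNA per cell cannot be told apart.

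Dgcr8 loss removes canonical microRNAs, and miR-294 was added back as a mature duplex. Its mature sequence is shown first below with its seed, bases 2 to 8, in capitals. The lines after it are 6 of the 29 mature microRNAs that RefSeq (GRCm38.p6) places within the transcribed regions of these genes, picked from hosts whose levels are described below. H19 hosts miR-675, Mest hosts miR-335, Meg3 hosts miR-770, and Rian hosts miR-341 and miR-370.
mmu-miR-294-3p: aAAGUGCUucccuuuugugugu
mmu-miR-675-5p: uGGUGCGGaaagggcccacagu
mmu-miR-675-3p: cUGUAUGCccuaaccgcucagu
mmu-miR-335-5p: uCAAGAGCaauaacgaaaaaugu
mmu-miR-770-5p: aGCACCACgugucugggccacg
mmu-miR-341-3p: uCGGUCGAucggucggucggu
mmu-miR-370-3p: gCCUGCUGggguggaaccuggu
None of the 29 hosted microRNAs has the miR-294-3p seed, and no 2 of them share a seed. They come from 15 hairpins, 9 of them on the strand of the host gene. Rian holds 3 hairpins on its own strand, and Rtl1, which lies antisense to a microRNA cluster, holds 6 on the opposite strand beside 1 on its own. Small RNAs were not measured in these libraries.

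Sequences just before the start sites are shown for members that changed strongly or that lie beside a member that moved the other way. Each is 250 bases long, ends at the base before a RefSeq start and is written on the gene's strand (GRCm38.p6). Capitals mark the hexamer TGCCGC or its reverse complement GCGGCA, the core motif of ZFP57 binding. The Mest sequence is chr6:30737800-30738049 on the plus strand, with 14 CpG dinucleotides and 2 hexamers. The Meg3 sequence is chr12:109540746-109540995 on the plus strand, with 10 CpG and 1 hexamer. The Grb10 sequence is chr11:12037421-12037670 on the minus strand, with 40 CpG, a GC content of 81.2% and no hexamer. The Grb10 window counted below, which adds the 50 bases after this start, held 1 hexamer. The last line is the complete interval between the divergent genes Peg3 and Usp29, chr7:6730432-6730577 on the plus strand, 146 bases with 5 CpG and no hexamer.
Mest: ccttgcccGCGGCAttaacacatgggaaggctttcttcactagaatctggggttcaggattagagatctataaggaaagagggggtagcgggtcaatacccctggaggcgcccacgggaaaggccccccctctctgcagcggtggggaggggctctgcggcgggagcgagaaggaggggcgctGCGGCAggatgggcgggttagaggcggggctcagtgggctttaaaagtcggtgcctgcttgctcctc
Meg3: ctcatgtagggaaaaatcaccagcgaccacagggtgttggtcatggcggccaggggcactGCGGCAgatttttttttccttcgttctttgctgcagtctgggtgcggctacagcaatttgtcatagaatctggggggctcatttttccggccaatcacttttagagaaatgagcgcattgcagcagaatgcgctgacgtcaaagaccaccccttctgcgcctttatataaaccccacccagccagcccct
Grb10: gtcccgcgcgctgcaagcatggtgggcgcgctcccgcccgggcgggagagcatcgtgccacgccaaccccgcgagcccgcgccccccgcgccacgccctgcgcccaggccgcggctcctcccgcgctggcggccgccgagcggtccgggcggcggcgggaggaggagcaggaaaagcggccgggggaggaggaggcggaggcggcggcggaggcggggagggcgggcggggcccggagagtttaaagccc
Peg3 to Usp29: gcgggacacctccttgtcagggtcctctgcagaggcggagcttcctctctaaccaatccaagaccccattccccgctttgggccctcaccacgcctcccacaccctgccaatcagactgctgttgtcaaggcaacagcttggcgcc
RefSeq windows of 250 bases before to 50 after a start were matched for 35 of the 43 genes, 51 windows in all. The hexamer occurred on either strand in 13 of these 51 windows (25.5%), from 12 genes, against 3813 of all 32851 windows (11.6%). The median window of these genes held 15 CpG, against 7 over all windows. A match of letters is a description of the sequence and not a binding site.

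Dgcr8 and Mbnl2 followed the labels of their groups. Dgcr8 RNA averaged 22.4 ± 0.662 FPKM (SD, n = 2) in WT and 8.19 ± 0.432 in Dgcr8 KO, a change of -1.35 ± 0.10 (SE) in log2(FPKM + 1) with an adjusted p of 3.47e-05. Mbnl2 fell by 1.01 ± 0.12 with siMbnl1/2 against Dgcr8 KO (adjusted p = 0.0191), whereas Mbnl1 averaged 8.71 ± 1 FPKM in Dgcr8 KO and 6.8 ± 0.0621 with siMbnl1/2, which was not called (adjusted p = 0.158). With miR-294 against Dgcr8 KO, 2 of the 3 genes Dgcr8, Mbnl1 and Mbnl2 were also called lower. Their summed FPKM was 25.2 and 26.6 with miR-294 and 25.9 and 27.7 with siMbnl1/2. Between these 2 groups none of the 3 was called lower with siMbnl1/2, and 1 was called higher. Every change below is a difference in log2(FPKM + 1) with its SE from limma, a linear model fitted over all 12786 genes, and "called" means a Benjamini-Hochberg adjusted p under 0.05. This scale understates the change of genes near 1 FPKM. The 2 libraries of a group differed by a median of 0.054 (log2) over the imprinted genes in WT and 0.064 in the miR-294 group, against 0.116 in Dgcr8 KO and 0.212 in the siMbnl1/2 group. The summed FPKM of 8 ES cell markers was 5650 to 7470 across libraries, and that of 12 fibroblast markers 2.94 to 5.36, of which 1 reached the test. Endoderm markers stood apart: the 9 genes summed to 74.7 in each WT library and to between 3.67 and 4.6 in the 6 Dgcr8-deficient libraries. All 7 of them that were tested were called lower in Dgcr8 KO, against 30.1% of all tested genes. With sums this low outside WT, most could pass the filter only through the WT libraries, so this count adds nothing to the sums. The part of the endoderm difference in the changes of imprinted genes between WT and the other groups was not tested. Trophoblast markers summed to 48.2 to 83.5 and neural markers to 34.2 to 50.7.

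The 33 tested imprinted genes spanned a wide range, and 20 of them had a mean of at least 10 FPKM. Rian, Meg3, Cd81 and Gnas were the most abundant by mean over the libraries, all near or above 100 FPKM, whereas Peg12 averaged 1.15. Among the 10 genes under the filter were the antisense RNAs Airn (0 to 0.619 FPKM) and Kcnq1ot1 (0.142 to 0.244), which silence neighbouring genes on the paternal allele, and Kcnq1 itself (0.0458 to 0.259). Asb4 (0.0102 to 0.133), Nap1l5 (0.0742 to 0.586), Zim1 (0.427 to 1.06) and Peg13 (0.614 to 1.2) were low in every group. A fit without the filter called 29.2% of all 28009 genes in Dgcr8 KO against WT. Of the 10 genes it called Usp29, Rtl1 and Magel2, described below, and none of the others. With miR-294 against Dgcr8 KO it called 23.5% of all genes, and of the 10 only Magel2.

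**Figure D1:**
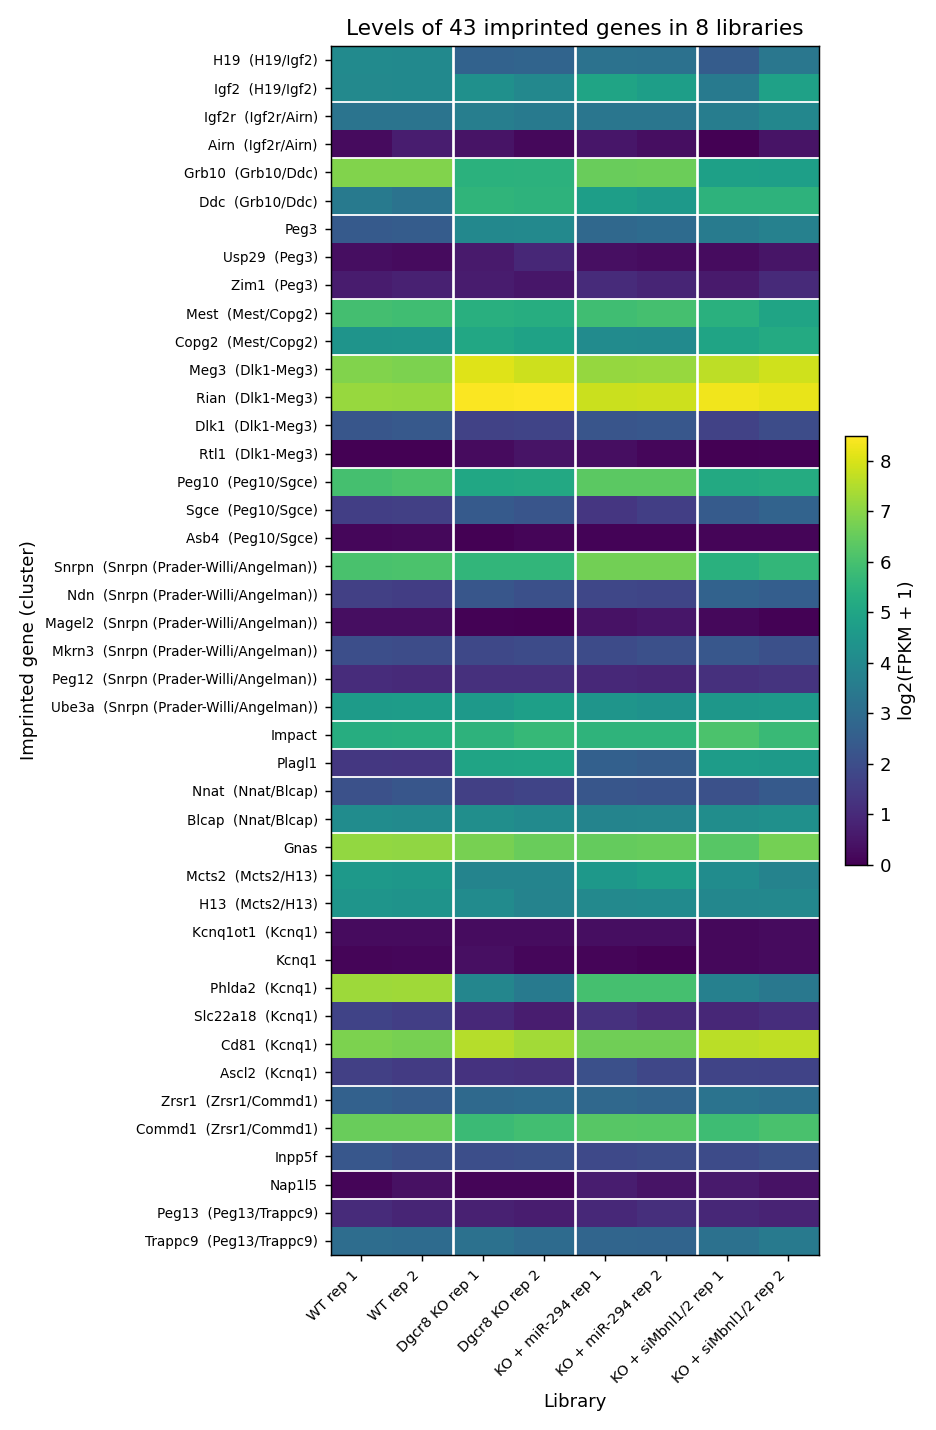
Heat map of log2(FPKM + 1) for the 43 imprinted genes (rows, ordered by cluster) in each of the 8 libraries (columns, 2 per group). Plagl1 and Phlda2 show the widest contrast between WT and Dgcr8 KO, and the 2 libraries of a group look alike in nearly all rows, with Igf2 in the siMbnl1/2 group as the clearest exception.

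Loss of Dgcr8 went with changes in both directions across the imprinted genes. In Dgcr8 KO against WT, 10 of the 33 tested genes rose, 14 fell and 9 were not called, which is 72.7% called against 59.8% of all tested genes (29.6% higher, 30.1% lower). The growth suppressor and transcription factor Plagl1 rose the most and the placental growth restrainer Phlda2 fell the most. The median change over the imprinted genes was -0.01 and the median absolute change 0.60, against 0.00 and 0.41 over all genes. In 29 of the 33, the WT and Dgcr8 KO libraries did not overlap, as in 81.8% of all tested genes. A change of at least 1 on the log2 scale was called for 8 of the 33, against 12.2% of all genes.

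**Figure D2:**
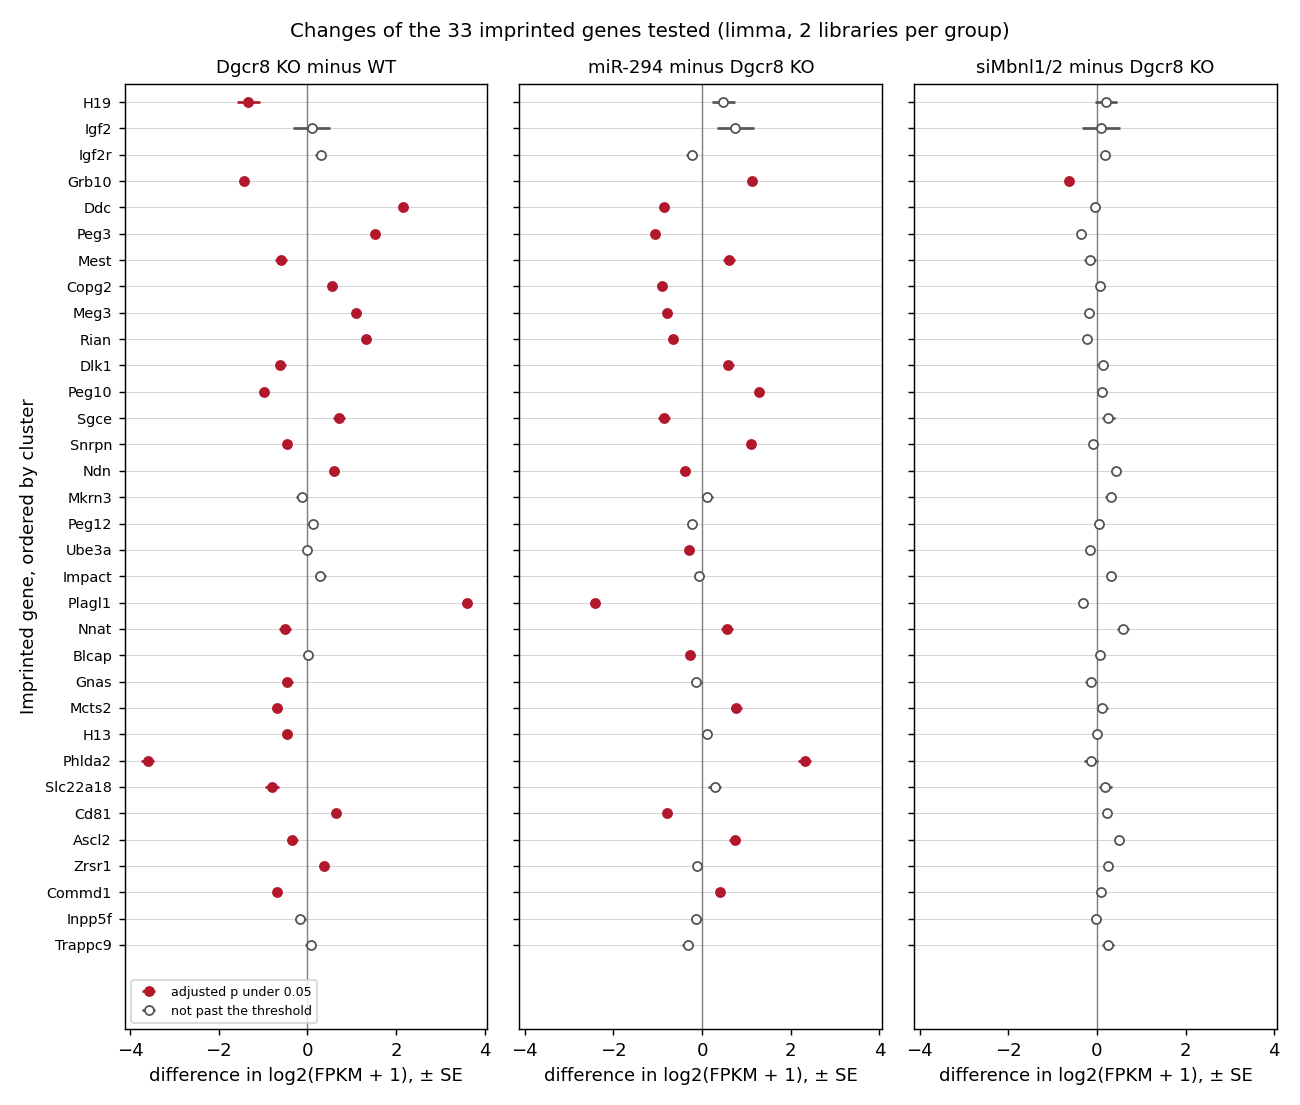
Change in log2(FPKM + 1) with its SE for the 33 tested imprinted genes in Dgcr8 KO against WT, miR-294 against Dgcr8 KO and siMbnl1/2 against Dgcr8 KO. Filled red points have an adjusted p under 0.05: 24 genes in the left panel, 21 in the middle and Grb10 alone on the right. The panels share the Dgcr8 KO libraries.

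In Dgcr8 KO against WT, maternally and paternally expressed genes were each called in both directions, as were all tested genes (29.6% higher, 30.1% lower). Of the 9 tested genes known as maternally expressed, 3 rose and 5 fell in Dgcr8 KO against WT, with a median of -0.34. Of the 15 tested paternally expressed genes, 5 rose and 6 fell, with a median of 0.10. Of the 6 genes whose imprinting depends on the tissue, 2 rose and 1 fell, and of 3 whose imprinting depends on the transcript, 2 fell. These classes are textbook background and alleles were not measured.

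The clusters were then read one by one. In Dgcr8 KO against WT, 8 of the 18 clusters had at least 2 called genes, and in 7 of these 8 some genes rose while others fell: Grb10/Ddc, Mest/Copg2, Peg10/Sgce, Dlk1-Meg3, the Snrpn region, the Kcnq1 region and Zrsr1/Commd1. The exception was Mcts2/H13, where both fell. Clusters with fewer than 2 tested genes could not reach this count: Igf2r/Airn, Peg3, Impact, Plagl1, Gnas, Inpp5f, Peg13/Trappc9 and Nap1l5. H19/Igf2 and Nnat/Blcap had 2 tested genes each, with 1 called. Against Dgcr8 KO, the miR-294 libraries had 7 clusters with at least 2 called genes, and all 7 held both directions. Counting only genes whose call held in every alternative run, 6 clusters remained with at least 2 genes in Dgcr8 KO against WT, and 5 with miR-294 against Dgcr8 KO, where the Snrpn region and Nnat/Blcap dropped out; each of these held both directions. All tested genes were called higher and lower in near-equal shares in Dgcr8 KO (29.6% and 30.1%), and neighbouring genes outside the imprinted clusters were not counted, so mixed directions are not shown to be particular to these clusters.

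Plagl1 (chr10:13060504-13131694) is a paternally expressed zinc finger transcription factor that restrains proliferation and regulates other imprinted genes. It stood at 1.61 and 1.53 FPKM in the WT libraries, 29.8 and 31.1 in Dgcr8 KO, 5.09 and 4.63 with miR-294, and 24.8 and 24.0 with siMbnl1/2. WT was low, the Dgcr8 KO and siMbnl1/2 groups were high, and no 2 groups overlapped. The rise in Dgcr8 KO was 3.61 ± 0.08 (adjusted p = 8.83e-07), a 19.4-fold ratio of mean FPKM. With miR-294 it fell by 2.42 ± 0.08 against Dgcr8 KO (adjusted p = 9.17e-06) and still exceeded WT by 1.19 ± 0.08 (adjusted p = 0.000141). The siMbnl1/2 libraries were 0.31 ± 0.08 lower than Dgcr8 KO, which was not called (adjusted p = 0.114).

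Phlda2 (chr7:143501545-143503150) encodes a small pleckstrin homology domain protein, maternally expressed, that limits placental growth. The WT libraries had 153 and 154 FPKM, Dgcr8 KO 13.9 and 10, miR-294 62.1 and 62.8, and siMbnl1/2 12 and 9.49. WT was highest, miR-294 was intermediate, and the Dgcr8 KO and siMbnl1/2 libraries were low and overlapped. Phlda2 fell by 3.60 ± 0.15 in Dgcr8 KO (adjusted p = 4.49e-06) and rose by 2.31 ± 0.15 with miR-294 (adjusted p = 5.39e-05), a 5.23-fold ratio. The summed endoderm markers, 74.7 FPKM in each WT library, were 4.42 and 3.67 in Dgcr8 KO and 4.6 and 4.39 with miR-294. With miR-294, 3 of the 7 tested markers rose (Gata6 from 0.155 to 0.759 FPKM, Sox7 from 0.155 to 1.26 and Dab2 from 0.322 to 0.749) and Gata4 fell from 2.89 to 0.981. Their part in the change of Phlda2 was not tested.

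The neighbours of Phlda2 in the Kcnq1 region were mixed. Among the further imprinted genes counted below, Cdkn1c followed its pattern: means were 34.7 FPKM (WT), 6.24 (Dgcr8 KO), 14.4 (miR-294) and 6.09 (siMbnl1/2). Cdkn1c fell in Dgcr8 KO (-2.3 ± 0.1, adjusted p = 5.63e-06) and rose with miR-294 (1.09 ± 0.1, adjusted p = 0.000175). Nap1l4 moved likewise but less (-0.4 and 0.34, both called). Tspan32 went the other way (2.12 and -1.31, both called), and Tssc4 and Osbpl5 were not called. Cd81, a tetraspanin at the cell surface, had 112 and 107 FPKM in WT, 188 and 157 in Dgcr8 KO, 98.8 and 99.3 with miR-294, and 196 and 204 with siMbnl1/2. It was high in the Dgcr8 KO and siMbnl1/2 groups. Cd81 rose by 0.65 ± 0.09 in Dgcr8 KO (adjusted p = 0.000506) and fell by 0.79 ± 0.09 with miR-294 (adjusted p = 0.000313). Slc22a18, of the organic cation transporter family, had 2.28 and 1.96 FPKM in WT, 0.978 and 0.621 in Dgcr8 KO, 1.32 and 1.03 with miR-294, and 0.918 and 1.17 with siMbnl1/2. It fell by 0.80 ± 0.15 in Dgcr8 KO (adjusted p = 0.00226), and the miR-294 libraries were not distinguished from Dgcr8 KO (0.28 ± 0.15, adjusted p = 0.149). Ascl2, a transcription factor of the trophoblast, had 2.05 and 1.81 FPKM in WT, 1.37 and 1.26 in Dgcr8 KO, 3.17 and 2.54 with miR-294, and 2.31 and 2.24 with siMbnl1/2. Its rise of 0.73 ± 0.12 with miR-294 was called (adjusted p = 0.00172). Its fall of 0.34 in Dgcr8 KO (adjusted p = 0.0378) was not called when any WT or Dgcr8 KO library was left out: the adjusted p was 0.191 and 0.0817 without WT libraries 1 and 2, and 0.0772 and 0.132 without Dgcr8 KO libraries 1 and 2.

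Grb10 and Ddc are neighbours on chromosome 11, separated by 32363 bases. Grb10 (chr11:11930508-12038683) encodes an adaptor protein that dampens insulin and growth factor receptor signalling and is maternally expressed in most tissues. It had 117 FPKM in both WT libraries, 42.0 and 43.1 in Dgcr8 KO, 93.1 and 95.4 with miR-294, and 27.1 and 26.7 with siMbnl1/2. The 4 groups were separate, with siMbnl1/2 the lowest. It fell by 1.44 ± 0.06 in Dgcr8 KO (adjusted p = 3.74e-06) and rose by 1.13 ± 0.06 with miR-294 (adjusted p = 3.12e-05). Ddc, which encodes the decarboxylase that makes dopamine and serotonin and is imprinted in the heart, went the other way. Its libraries had 10.1 and 8.44 FPKM in WT, 46.1 and 43.6 in Dgcr8 KO, 26.0 and 22.8 with miR-294, and 43.7 and 43.6 with siMbnl1/2. Ddc rose by 2.16 ± 0.10 in Dgcr8 KO (adjusted p = 6.48e-06), a 4.82-fold ratio, and fell by 0.85 ± 0.10 with miR-294 (adjusted p = 0.000435).

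**Figure D3:**
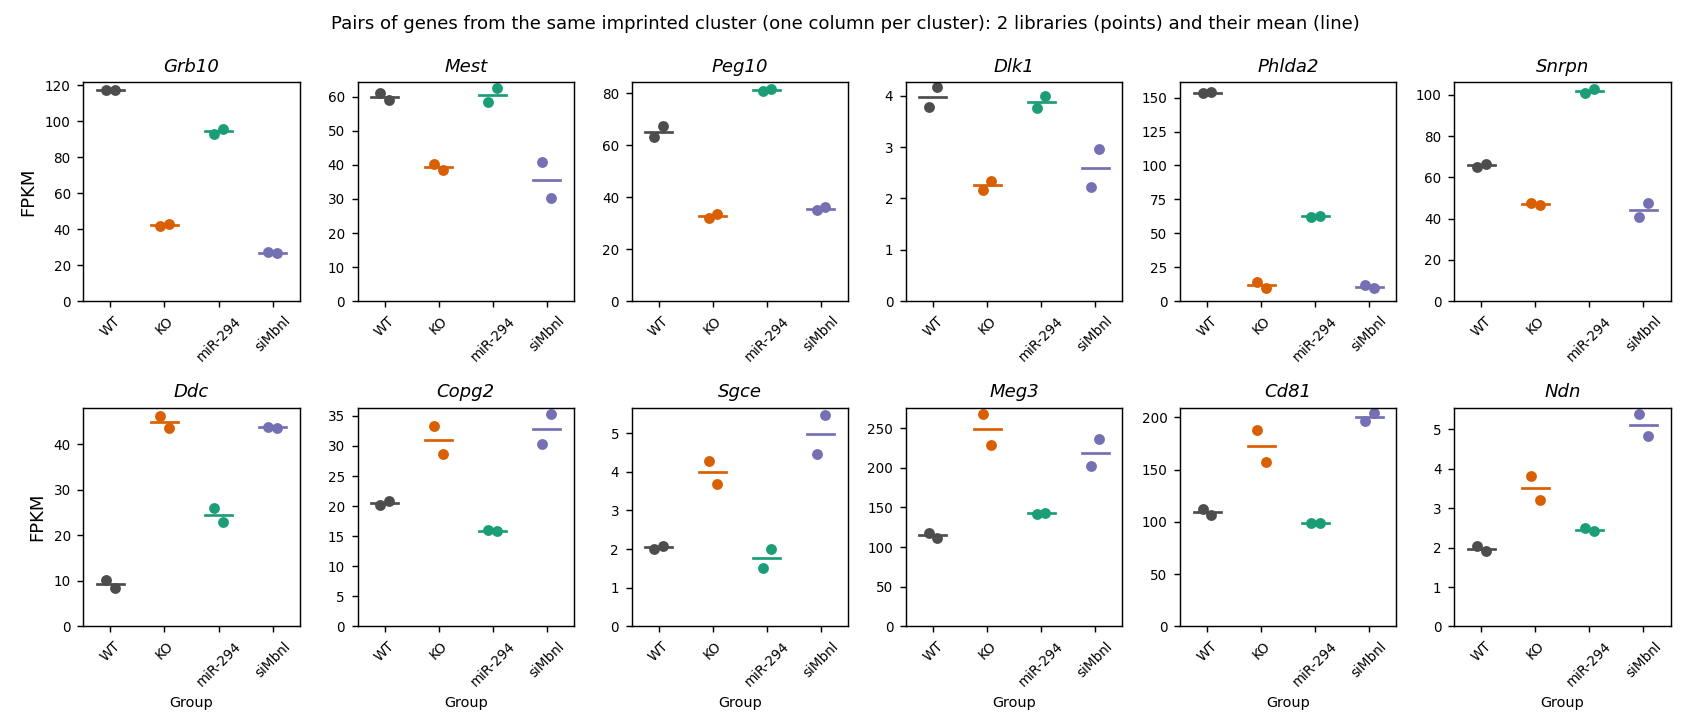
FPKM of 6 pairs of genes from the same imprinted clusters, by group, with each library as a point and the mean of 2 as a line. Each pair was picked as a gene that was lower in Dgcr8 KO than in WT (upper) and a gene that was higher (lower). Examples are Grb10 (117 to 42.5 FPKM) and Ddc (9.29 to 44.8 FPKM). Slc22a18 and Ascl2, which fell like Phlda2, and Mcts2/H13, where both genes fell, are not shown.

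Mest and Copg2 are convergent genes on chromosome 6 whose 3′ ends share 912 exon bases on opposite strands, 23.1% of the exon bases of Mest and 17.8% of those of Copg2. Whether the authors' counting used the strand was not stated, so the assignment of reads there is uncertain. Mest, an alpha/beta hydrolase of the mesoderm, had 61.1 and 58.9 FPKM in WT, 40.3 and 38.5 in Dgcr8 KO, 58.4 and 62.6 with miR-294, and 40.8 and 30.4 with siMbnl1/2. The miR-294 libraries overlapped those of WT. Mest fell by 0.60 ± 0.13 in Dgcr8 KO (adjusted p = 0.0047) and rose by 0.61 ± 0.13 with miR-294 (adjusted p = 0.0054). Copg2, a coat protein subunit of transport vesicles, had 20.2 and 20.8 FPKM in WT, 33.3 and 28.6 in Dgcr8 KO, 16.1 and 15.8 with miR-294, and 30.3 and 35.4 with siMbnl1/2. It rose by 0.56 ± 0.10 in Dgcr8 KO (adjusted p = 0.00201) and fell by 0.91 ± 0.10 with miR-294 (adjusted p = 0.000321), to a level under WT.

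Peg10 and Sgce are both paternally expressed from start sites 98 bases apart on opposite strands. Peg10, a gene derived from a retrotransposon and needed for the placenta, had 63.2 and 67.3 FPKM in WT, 32.1 and 33.6 in Dgcr8 KO, 81.0 and 81.8 with miR-294, and 35.0 and 36.2 with siMbnl1/2. It fell by 0.97 ± 0.06 in Dgcr8 KO (adjusted p = 2.34e-05) and rose by 1.28 ± 0.06 with miR-294 (adjusted p = 3.02e-05), a 2.48-fold ratio. Sgce, which encodes epsilon-sarcoglycan of the muscle membrane complex, had 2.01 and 2.08 FPKM in WT, 4.28 and 3.69 in Dgcr8 KO, 1.52 and 2.0 with miR-294, and 4.47 and 5.46 with siMbnl1/2. Sgce was high in the 2 groups where Peg10 was low. Sgce rose by 0.71 ± 0.14 in Dgcr8 KO (adjusted p = 0.00289) and fell by 0.86 ± 0.14 with miR-294 (adjusted p = 0.00159).

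In the Dlk1-Meg3 cluster of chromosome 12, the maternally expressed noncoding RNAs and the paternally expressed coding gene Dlk1 separated. Meg3 had 118 and 112 FPKM in WT, 268 and 229 in Dgcr8 KO, 142 and 143 with miR-294, and 202 and 236 with siMbnl1/2. Rian, the snoRNA and microRNA host further along the same strand, had 143 and 140 FPKM in WT, 351 and 360 in Dgcr8 KO, 223 and 227 with miR-294, and 316 and 296 with siMbnl1/2. Both were lowest in WT, and their miR-294 libraries lay between WT and Dgcr8 KO. Meg3 rose by 1.10 ± 0.10 in Dgcr8 KO (adjusted p = 7.56e-05) and fell by 0.79 ± 0.10 with miR-294 (adjusted p = 0.000539). Rian rose by 1.32 ± 0.06 (adjusted p = 5.27e-06) and fell by 0.66 ± 0.06 (adjusted p = 0.000131). Dlk1, a transmembrane growth regulator related to Notch ligands, had 3.78 and 4.16 FPKM in WT, 2.17 and 2.34 in Dgcr8 KO, 3.76 and 4.0 with miR-294, and 2.22 and 2.96 with siMbnl1/2. It fell by 0.61 ± 0.13 in Dgcr8 KO (adjusted p = 0.00405) and rose by 0.59 ± 0.13 with miR-294 (adjusted p = 0.00617), where its libraries overlapped WT. Rtl1, a retrotransposon-derived gene of the placenta, was under the filter, with 0 and 0.00446 FPKM in WT, 0.184 and 0.357 in Dgcr8 KO, 0.246 and 0.0997 with miR-294, and 0.0105 and 0.0281 with siMbnl1/2. In the fit without a filter, Rtl1, which is paternally expressed like Dlk1, rose by 0.34 ± 0.09 in Dgcr8 KO (adjusted p = 0.0264). Mirg, the microRNA host next in the cluster and one of the further imprinted genes counted below, averaged 12 ± 0.917 FPKM in WT, 64.6 ± 7.54 in Dgcr8 KO and 50.4 ± 2.03 with miR-294. It rose by 2.33 ± 0.09 in Dgcr8 KO (adjusted p = 3.83e-06).

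**Figure D4:**
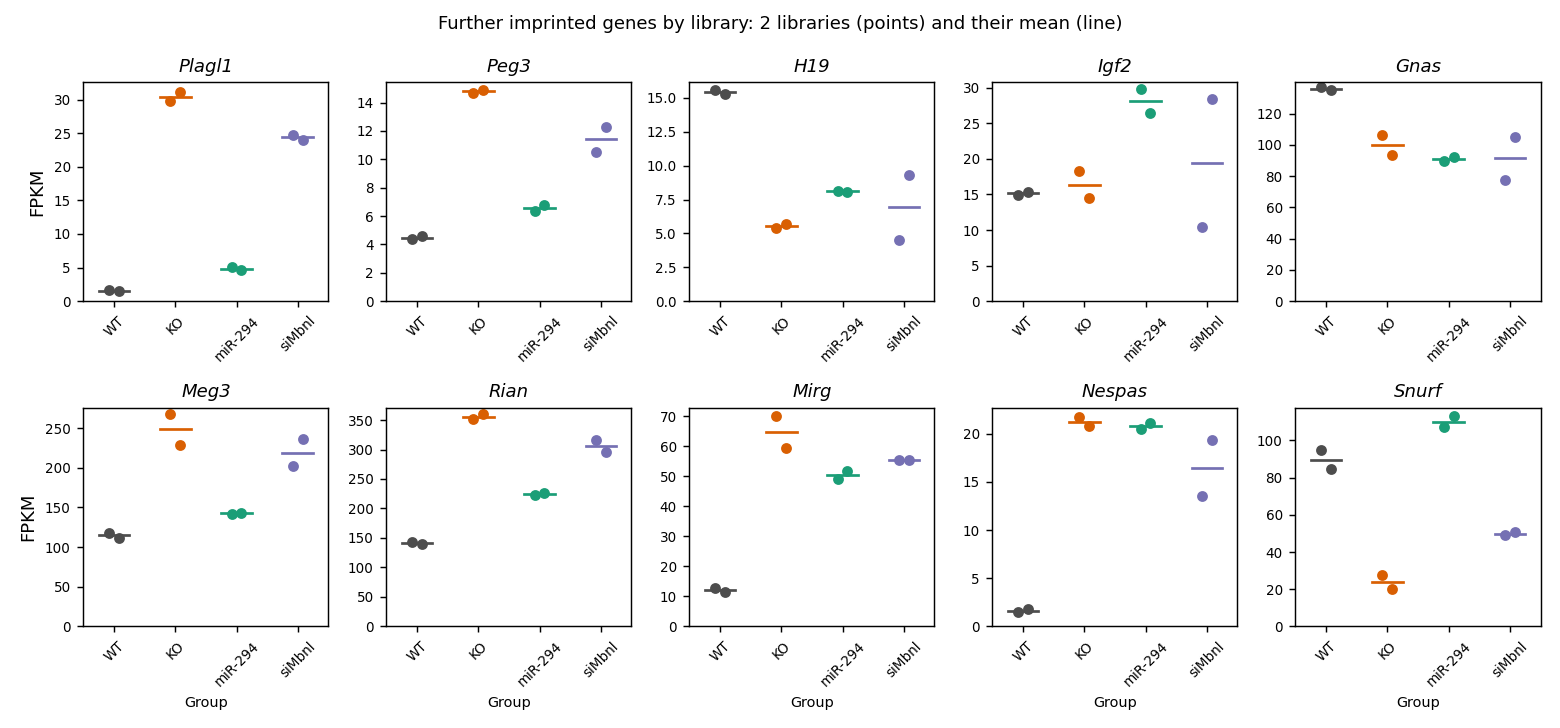
FPKM of 7 of the imprinted genes and of Mirg, Nespas and Snurf by group, each library a point and the mean of 2 a line. Meg3, Rian and Mirg were lowest in WT, Nespas was high in all 3 Dgcr8-deficient groups, and the siMbnl1/2 libraries of H19 and Igf2 lie far apart.

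H19 and Igf2 lie 72622 bases apart on chromosome 7 and are governed by one control region, H19 from the maternal and Igf2 from the paternal allele. H19, a growth-limiting noncoding RNA, had 15.6 and 15.3 FPKM in WT, 5.38 and 5.73 in Dgcr8 KO, 8.16 and 8.08 with miR-294, and 4.5 and 9.34 with siMbnl1/2. It fell by 1.33 ± 0.25 in Dgcr8 KO (adjusted p = 0.00254). Its difference of 0.48 ± 0.25 with miR-294 was not called (adjusted p = 0.143), but was called without siMbnl1/2 library 1 (adjusted p = 0.00148), without siMbnl1/2 library 2 (0.00159) and in a fit of just the 4 Dgcr8 KO and miR-294 libraries (0.00697). Igf2, the fetal growth factor, had 14.9 and 15.4 FPKM in WT, 18.3 and 14.5 in Dgcr8 KO, 29.8 and 26.4 with miR-294, and 10.4 and 28.4 with siMbnl1/2. The WT and Dgcr8 KO libraries overlapped (0.10 ± 0.42, adjusted p = 0.852), whereas both miR-294 libraries were above both. That difference of 0.75 ± 0.42 was not called (adjusted p = 0.192), but was without siMbnl1/2 library 1 (0.00167) or 2 (0.00169). These 2 libraries, 1.36 apart on the log2 scale, enter the shared estimate of the spread. Over all alternatives the adjusted p ranged up to 0.438. An annotated readthrough gene shares 62.8% of the exon bases of Igf2 on its strand, so its level is uncertain. Igf2r, the receptor that clears Igf2, had 8.56 and 8.75 FPKM in WT, 11.5 and 10.3 in Dgcr8 KO, 9.08 and 9.06 with miR-294, and 11 and 14.1 with siMbnl1/2. Its 0.30 ± 0.12 in Dgcr8 KO was not called (adjusted p = 0.0585), but was called without siMbnl1/2 library 1 (0.0128) or 2 (0.013).

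Peg3, a paternally expressed zinc finger gene of maternal behaviour and growth, had 4.36 and 4.59 FPKM in WT, 14.7 and 14.9 in Dgcr8 KO, 6.39 and 6.76 with miR-294, and 10.5 and 12.3 with siMbnl1/2. The 4 groups did not overlap, with Dgcr8 KO highest and WT lowest. Peg3 rose by 1.53 ± 0.10 in Dgcr8 KO (adjusted p = 1.76e-05) and fell by 1.06 ± 0.10 with miR-294 (adjusted p = 0.000147). Usp29, which starts 146 bases away on the other strand, was under the filter. It had 0.244 and 0.193 FPKM in WT, 0.52 and 0.942 in Dgcr8 KO, 0.272 and 0.212 with miR-294, and 0.208 and 0.397 with siMbnl1/2, so both Dgcr8 KO libraries were the highest. In the fit without a filter, Usp29 rose by 0.50 ± 0.14 in Dgcr8 KO (adjusted p = 0.0352).

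In the Snrpn region of chromosome 7, deleted or silenced in Prader-Willi and Angelman syndromes, 1 gene fell and 1 rose in Dgcr8 KO. Snrpn, a spliceosome protein gene, had 64.9 and 66.7 FPKM in WT, 47.7 and 46.8 in Dgcr8 KO, 101 and 103 with miR-294, and 41.0 and 47.8 with siMbnl1/2. It fell by 0.47 ± 0.08 in Dgcr8 KO (adjusted p = 0.00168) and rose by 1.10 ± 0.08 with miR-294 (adjusted p = 7.8e-05), above WT by 0.63 ± 0.08 (adjusted p = 0.00175). Snurf, which is made from the same transcript and shares exon bases with Snrpn, had 94.8 and 84.6 FPKM in WT, 27.6 and 20.2 in Dgcr8 KO, 107 and 113 with miR-294, and 48.9 and 50.9 with siMbnl1/2. How reads were divided between them was not tested, and both levels are uncertain. Ndn, a paternally expressed growth suppressor of neurons, had 2.03 and 1.91 FPKM in WT, 3.83 and 3.2 in Dgcr8 KO, 2.49 and 2.41 with miR-294, and 5.38 and 4.83 with siMbnl1/2. It rose by 0.60 ± 0.11 in Dgcr8 KO (adjusted p = 0.00241). Its fall of 0.38 with miR-294 (adjusted p = 0.0217) was not called without Dgcr8 KO library 1 (0.109), miR-294 library 1 (0.082) or miR-294 library 2 (0.104), nor after quantile normalization (0.158).

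Ube3a, a ubiquitin ligase expressed from both alleles outside neurons, had 24.6 and 25.1 FPKM in WT, 22.7 and 26.7 in Dgcr8 KO, 20.4 and 19.2 with miR-294, and 21.6 and 22.7 with siMbnl1/2. WT and Dgcr8 KO overlapped. Its fall of 0.30 with miR-294 against Dgcr8 KO (adjusted p = 0.0247) was not called without Dgcr8 KO library 2 (0.107), miR-294 library 1 (0.0668) or miR-294 library 2 (0.141), nor after median-of-ratios scaling (0.0717) or quantile normalization (0.0864), nor without the filter (0.0553). Mkrn3, a ubiquitin ligase that delays puberty, ranged from 2.56 to 3.94 FPKM over the libraries and Peg12 from 0.877 to 1.4, and neither was called in any comparison. With untrended variance, Peg12 was called lower with miR-294 against Dgcr8 KO (0.0385) and higher with siMbnl1/2 against miR-294 (0.0216), the latter also without siMbnl1/2 library 1 (0.0494). Magel2, a ubiquitin ligase regulator, was under the filter with 0.236 and 0.235 FPKM in WT, 0.0284 and 0.00728 in Dgcr8 KO, 0.342 and 0.436 with miR-294, and 0.131 and 0.0456 with siMbnl1/2. Without a filter it fell by 0.28 ± 0.07 in Dgcr8 KO (adjusted p = 0.0212) and rose by 0.45 ± 0.07 with miR-294 (adjusted p = 0.00457).

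Gnas, a complex locus on chromosome 2 that encodes the stimulatory G protein alpha subunit, had 137 and 135 FPKM in WT, 106 and 93.4 in Dgcr8 KO, 89.7 and 91.9 with miR-294, and 77.6 and 105 with siMbnl1/2. Both WT libraries were above the other 6. The fall of 0.45 in Dgcr8 KO (adjusted p = 0.0206) was not called without WT library 1 (0.0838), WT library 2 (0.0742) or Dgcr8 KO library 2 (0.112), nor without the filter (0.055) or after quantile normalization (0.345). Nespas, the antisense RNA of the locus, averaged 1.66 ± 0.186 FPKM in the WT libraries and rose to 21.3 ± 0.629 in Dgcr8 KO (3.07 ± 0.15, adjusted p = 7.95e-06). Its libraries with miR-294 had 20.5 and 21.1 FPKM, not distinguished from Dgcr8 KO (-0.03 ± 0.15, adjusted p = 0.877). Nespas shares 988 exon bases with Gnas on the opposite strand.

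Mcts2 is a retrocopy within an intron of H13, and Zrsr1 one within Commd1, and reads may be split between such copies and their parent genes, so the levels of Mcts2 and Zrsr1 are uncertain. Mcts2 had 22.9 and 21.7 FPKM in WT, 13.4 in both Dgcr8 KO libraries, 22.0 and 25.3 with miR-294, and 16.5 and 13 with siMbnl1/2. It fell by 0.69 ± 0.12 in Dgcr8 KO (adjusted p = 0.00163) and rose by 0.77 ± 0.12 with miR-294 (adjusted p = 0.00137). H13, a signal peptide peptidase, had 20.8 and 19.6 FPKM in WT, 16.1 and 12.8 in Dgcr8 KO, 15.1 and 15.8 with miR-294, and 14.3 and 14.6 with siMbnl1/2. It fell by 0.46 ± 0.11 in Dgcr8 KO (adjusted p = 0.00727, and 0.0528 without WT library 1) and its 0.10 ± 0.11 with miR-294 was not called (adjusted p = 0.466).

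Commd1, a copper and NF-kB regulator, had 93.3 and 92.5 FPKM in WT, 55.0 and 59.6 in Dgcr8 KO, 77.3 and 74.8 with miR-294, and 57.6 and 65.6 with siMbnl1/2. It fell by 0.69 ± 0.08 in Dgcr8 KO (adjusted p = 0.000247) and rose by 0.40 ± 0.08 with miR-294 (adjusted p = 0.00432). Zrsr1, a splicing factor gene, had 5.25 and 4.71 FPKM in WT, 6.54 and 6.86 in Dgcr8 KO, 6.37 and 5.9 with miR-294, and 8.49 and 7.89 with siMbnl1/2. Its rise of 0.37 in Dgcr8 KO (adjusted p = 0.0114) was not called without WT library 2 (0.0935) or Dgcr8 KO library 2 (0.0506), nor after quantile normalization (0.196).

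Nnat, a small membrane proteolipid gene within an intron of Blcap, had 3.28 and 3.83 FPKM in WT, 2.04 and 2.38 in Dgcr8 KO, 3.83 and 3.62 with miR-294, and 3.34 and 4.34 with siMbnl1/2. Dgcr8 KO was the lowest group. The fall of 0.50 in Dgcr8 KO (adjusted p = 0.013) was not called without WT library 2 (0.0915) or Dgcr8 KO library 1 (0.0708), and the rise of 0.56 ± 0.13 with miR-294 (adjusted p = 0.00993) not without Dgcr8 KO library 1 (0.0566) or miR-294 library 1 (0.0609). Blcap, an apoptosis-related gene, had 16.6 and 15.9 FPKM in WT, 17.2 and 15.6 in Dgcr8 KO, 13.3 and 13.6 with miR-294, and 16.8 and 18.1 with siMbnl1/2. Its fall of 0.27 with miR-294 (adjusted p = 0.0269) was not called without either WT library (0.0551 and 0.055), Dgcr8 KO library 1 (0.114), miR-294 library 1 (0.129) or miR-294 library 2 (0.0999), nor after quantile normalization (0.154).

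Impact, a regulator of translation under amino acid shortage, had 38.3 and 38.7 FPKM in WT, 43.9 and 50.7 in Dgcr8 KO, 44.6 and 45.2 with miR-294, and 66.6 and 52.7 with siMbnl1/2. Trappc9, a vesicle tethering subunit, had 7.22 and 6.85 in WT, 8.1 and 6.8 in Dgcr8 KO, 5.82 and 5.6 with miR-294, and 8.0 and 10.2 with siMbnl1/2. Inpp5f, a phosphoinositide phosphatase, ranged from 2.66 to 3.98. None of these 3 was called in Dgcr8 KO against WT or with miR-294 against Dgcr8 KO. Without siMbnl1/2 library 1 or 2, Impact was called in the first of these (0.29, adjusted p = 0.0146 and 0.0144) and Trappc9 in the other (-0.33, adjusted p = 0.0239 and 0.0242).

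The next question was how far miR-294 alone moved the imprinted genes of Dgcr8-deficient cells. Against Dgcr8 KO, 10 of the 33 tested genes rose, 11 fell and 12 were not called, which is 63.6% called against 52.2% of all tested genes (22.9% higher, 29.2% lower). The median change was -0.11 and the median absolute change 0.59, against -0.06 and 0.34 over all genes. Phlda2, Peg10, Grb10 and Snrpn rose by more than 1 on the log2 scale, and Plagl1 and Peg3 fell by more than 1. Of the paternally expressed genes 6 rose and 4 fell, and of the maternally expressed ones 3 rose and 3 fell. This comparison shares the Dgcr8 KO libraries with the comparison to WT, so the 2 sets of values are not independent. The groups did not overlap for 31 of the 33 genes, as for 78.5% of all tested genes.

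With miR-294 against WT, 7 of the 33 tested genes were higher and 9 lower, which is 48.5% called against 26.5% of all tested genes (11.8% higher, 14.7% lower). Only 5 of these 16 calls held when each library was left out in turn: Plagl1 (1.19), Ddc (1.31 ± 0.10, adjusted p = 0.000225), Rian (0.66 ± 0.06, adjusted p = 0.000341) and Snrpn (0.63) were higher, and Phlda2 was lower by 1.29 ± 0.15 (adjusted p = 0.00122). The count was 5 without WT library 1, 5 without WT library 2, 5 without miR-294 library 1 and 5 without miR-294 library 2. The share over all tested genes also fell, from 26.5% to 9.71%, 10.6%, 10.4% and 10.7% in that order. After quantile normalization 7 were higher and 4 lower. Of the genes called in Dgcr8 KO against WT, Mest, Dlk1, Mcts2 and Nnat had miR-294 libraries that overlapped WT.

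With siMbnl1/2 against Dgcr8 KO, no imprinted gene rose and 1 fell, 3.03% of the 33 against 1.11% of all tested genes (0.868% higher, 0.242% lower). That gene was Grb10, whose change was -0.64 ± 0.06 (adjusted p = 0.0124), a drop from 42.5 to 26.9 FPKM with separate libraries. It was not called when the fit used the 4 libraries of the comparison alone (adjusted p = 0.15). Leaving out siMbnl1/2 library 1 moved the change of H19 from 0.20 to 0.66. Leaving out library 2 moved that of Peg3 from -0.35 to -0.46 and that of Impact from 0.32 to 0.49. Each of these fits leaves 1 library in the siMbnl1/2 group. An unadjusted p under 0.05 was found for 11 of the 33, against 18.4% of all genes, and the groups did not overlap for 14, against 38.7%. The largest rises that were not called were Nnat (0.59 ± 0.13, adjusted p = 0.0801), Ascl2 (0.50 ± 0.12, adjusted p = 0.0853) and Ndn (0.44 ± 0.11, adjusted p = 0.103).

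The groups given miR-294 and siMbnl1/2, both in Dgcr8 KO cells, were also compared directly. Neither Mbnl1 nor Mbnl2 was called lower with siMbnl1/2 in this comparison. With siMbnl1/2 against miR-294, 14 of the 33 were higher and 8 lower, which is 66.7% called against 54% of all tested genes (33% higher, 21% lower). After quantile normalization 11 were higher and 9 lower, while the calls over all genes went from 4217 higher and 2685 lower to 3131 and 3382. Plagl1 (2.12 ± 0.08, adjusted p = 1.02e-05), Sgce (1.11 ± 0.14, adjusted p = 0.00046) and Cd81 (1.01 ± 0.09, adjusted p = 0.000106) were higher. Phlda2 fell by 2.44 ± 0.15 (adjusted p = 4.09e-05), Grb10 by 1.77 ± 0.06 (adjusted p = 6.61e-06), Snrpn by 1.19 ± 0.08 (adjusted p = 4.69e-05) and Peg10 by 1.17 ± 0.06 (adjusted p = 3.07e-05). Trappc9 was higher by 0.58 ± 0.13 (adjusted p = 0.00673). Without siMbnl1/2 library 2, H19 and Igf2 were also called lower (adjusted p = 0.001 and 0.000596).

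**Figure D5:**
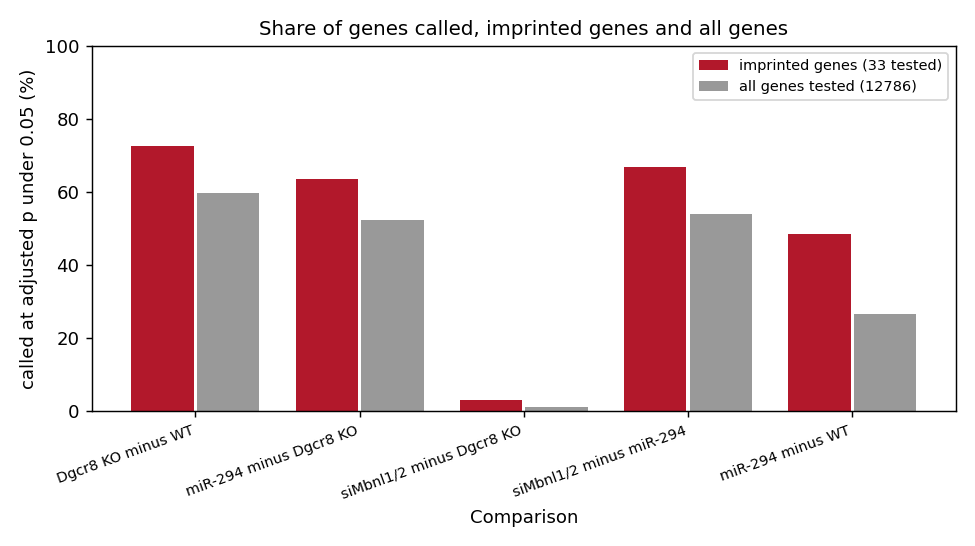
Percent of genes called at an adjusted p under 0.05 in each comparison, for the 33 tested imprinted genes (red) and all 12786 tested genes (grey). The red bar was taller in all 5 comparisons, with 72.7% against 59.8% in Dgcr8 KO against WT, and the comparisons share libraries. In siMbnl1/2 against Dgcr8 KO it stands for 1 gene, Grb10 (3.03% against 1.11%). That call was lost in the fit of the libraries of the comparison alone.

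A further list of 41 imprinted genes, which have 49 entries in the table, had 24 tested entries. In Dgcr8 KO against WT, 8 rose and 9 fell, with a median of -0.03, which is 70.8% called against 59.8% of all tested genes. With miR-294 against Dgcr8 KO 6 rose and 10 fell, or 66.7% against 52.2%. Slc38a4, a paternally expressed amino acid transporter, fell from 59.7 ± 0.0986 to 7.91 ± 0.658 FPKM in Dgcr8 KO (-2.77 ± 0.08, adjusted p = 1.72e-06). With miR-294, Snurf rose by 2.17 ± 0.13 (adjusted p = 4.83e-05) and the glutaminyl cyclase gene Qpct fell from 8.91 ± 0.359 to 2.52 ± 0.185 FPKM (adjusted p = 0.000111). With siMbnl1/2 the single call of this list was Snurf, which rose by 1.05 ± 0.13 (adjusted p = 0.0204).

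RNAs of the factors that set and keep imprints also differed between the groups. Of 25 genes for imprint maintenance and DNA methylation, 24 were tested, and in Dgcr8 KO against WT 7 rose and 13 fell with a median of -0.26, which is 83.3% called against 59.8% of all tested genes. The de novo methyltransferase Dnmt3a had 144 and 143 FPKM in WT, 26.3 and 19 in Dgcr8 KO, 54.1 and 55.1 with miR-294, and 12 and 17 with siMbnl1/2, a fall of 2.62 ± 0.18 in Dgcr8 KO (adjusted p = 2.57e-05). Its cofactor Dnmt3l had 240 and 234 FPKM in WT, 75.1 and 75.2 in Dgcr8 KO, and 432 and 435 with miR-294, a rise of 2.51 ± 0.14 with miR-294 (adjusted p = 3.71e-05). Against Dgcr8 KO, 11 of the 24 rose with miR-294 and 4 fell, which is 62.5% called against 52.2% of all tested genes. With siMbnl1/2 the single call was Dppa3, a protector of maternal methylation, at 5.42 ± 0.00303 FPKM in Dgcr8 KO and 10.6 ± 1.39 with siMbnl1/2 (0.84 ± 0.10, adjusted p = 0.019). The part of these genes in the changes of the imprinted genes was not tested.

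Matches to the miR-294-3p seed were read from the 3′ untranslated regions of the longest annotated form (GENCODE M21, mm10). The 7 letters AGCACTT, complementary to bases 2 to 8, were searched on the transcript strand only. Of the 30 tested imprinted genes with such a region, 8 held at least 1 match (26.7%), against 2019 of 11508 tested genes (17.5%), with median lengths of 1374 and 1136 bases. The 8 were Copg2, Peg10, Impact, Nnat, H13, Zrsr1, Commd1 and Trappc9. Flanks of 10 bases are shown for a gene that fell with miR-294, one that rose and one that was not called, with the match in capitals.
Copg2: gccggaagggAGCACTTctaaatattt
Peg10: cttttattttAGCACTTccaacaaaaa
Zrsr1: tgagctgcagAGCACTTgccagtatgc
Of the genes of similar length, 15.1% held a match for Copg2 and 52.7% for the long region of Peg10. Of the 8 genes with a match, Copg2 fell with miR-294, while Peg10, Nnat and Commd1 rose and the other 4 were not called. Plagl1 and Peg3, which fell the most with miR-294, had no match in regions of 2590 and 3614 bases. A match does not show that a site is used, and the lack of one says only that these letters are not in that region.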

How the data were processed

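RNA-seq libraries of 4 groups, 2 each, were taken from the deposited table of FPKM values per gene, made by the authors with STAR 2.5.0 and Cufflinks 2.2.1 on mm10 per the submitters' processing notes. The annotation release is not given in the sources used here. The labels' protocols describe RNA extracted with Trizol and libraries that keep the strand. Whether counting used the strand was not stated, and the labels call the RNA polyA RNA while the series' design calls it total RNA. Read depth is unknown, because FPKM values keep no totals. The summed FPKM per library was 473746 to 571508.

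Genes with a mean of at least 1 FPKM over the 8 libraries were tested on log2(FPKM + 1) with limma 3.58.1 (R 4.3.3), with 1 mean per group, all 8 libraries in one fit, and trended and robust moderated variance. P-values were adjusted by Benjamini-Hochberg over 12786 genes in each of 5 comparisons. The code was tested on simulated data. Groups came from the labels, and no library was left out. All 43 genes were named, and those called in any comparison or with a mean of at least 10 FPKM were given in full. For further lists, the 2 most changed called genes were given, beside Mirg, genes of the Kcnq1 region and some endoderm markers. The genes and lists were chosen with earlier results of these data known. Gene coordinates are those of the table, and sequences are RefSeq's (GRCm38.p6), except the untranslated regions, which came from GENCODE M21. Alternatives were the pseudocount, the filter, the scaling, the variance model, the libraries in the fit, a replicate block and leaving out each library.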

Additional observations from a re-analysis of the deposited data

How the results depend on the processing

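Over 17 alternatives, or 16 for genes with a mean under 5 FPKM, which a stricter filter removes, 19 of the 24 imprinted genes called in Dgcr8 KO against WT kept their call in every one run, as did 17 of 21 with miR-294 against Dgcr8 KO, 16 of 22 with siMbnl1/2 against miR-294 and 5 of 16 with miR-294 against WT. No called change reversed. The counts with single libraries left out were 20 to 26, 17 to 25, 17 to 23 and 5 to 19 in that order, and 1 to 3 with siMbnl1/2 against Dgcr8 KO, where fitting the 4 libraries of the comparison alone gave 0. With miR-294 against WT, 8 imprinted genes were called without the filter and 9 with a replicate block, against 16. The share called over all genes also fell, from 26.5% to 10.1% (of 28009 genes) and 20.4%. The cause was not tested. The replicate block gave 24, 20, 1 and 22 calls in the other comparisons (Dgcr8 KO against WT, miR-294 and siMbnl1/2 against Dgcr8 KO, siMbnl1/2 against miR-294). Same-numbered libraries deviated from their group means with correlations of -0.049 to 0.191, so the numbers were not taken to pair them. The median of all genes with siMbnl1/2 against miR-294 was 0.101 as deposited and -0.023 after quantile normalization. With 2 libraries per group and unknown depth, the genes under 1 FPKM could not be compared firmly.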
